A study of Mus musculus with 9 samples.

Results

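Axon guidance ligands and receptors are cell-surface and secreted proteins that steer growing axons, and many of them also act in cell migration, blood vessel growth and synapse formation. The genes described here were taken from the count table by the start of their symbol, which covers the ephrins (Efna, Efnb), the Eph receptors (Epha, Ephb), the semaphorins of classes 3 to 7, the neuropilins Nrp1 and Nrp2, the plexins, the Slit, Robo, netrin and Unc5 genes, and Dcc. The rule took 80 of the 36410 listed genes. Of these, 71 belong to the guidance families, and 9 share only their first letters with them: the 6 Slitrk genes, Unc50, Unc5cl and Plxna4os1. The 9 were kept and are described as a group of their own. Gene positions in brackets are those of GENCODE release M21 on GRCm38.

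The mRNA was measured by RNA-seq in 3 immortalized mouse striatal cell lines with 3 libraries each. Control cells (STHdhQ7/Q7) carry a huntingtin allele with 7 glutamine repeats on both chromosomes, HD-het cells (STHdhQ7/Q111) carry 7 repeats on 1 allele and 111 on the other, and HD-homo cells (STHdhQ111/Q111) carry 111 on both. The labels give no treatment. Every genotype is represented by a single line, so that the effect of the repeat and the difference between the lines cannot be told apart. The labels do not say whether the 3 libraries of a line came from separate cultures, and p values then measure only the spread between these libraries, which may be technical.

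As background, Slits repel axons through Robo receptors, and netrins attract them through Dcc and neogenin or repel them through Unc5 receptors. Class 3 semaphorins are secreted and act on complexes of a neuropilin with a plexin, while the semaphorins of the other classes are anchored in the membrane and bind plexins directly. Ephrins are membrane-bound ligands of the Eph receptor tyrosine kinases, and both sides of the contact can signal. In the developing striatum, Eph and ephrin signals help to sort cells into compartments, and netrin, Slit and semaphorin signals guide axons into and through it.

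In 4 guidance genes the mRNA had under 10 reads in every control or every HD-homo library and 1 CPM or more in every library of another line. CPM is the normalized number of reads on a gene per megaread of its library. The 250 bases before the RefSeq transcription start of these genes are shown because their mRNA was near absent in 1 line and measurable in every library of another. They come from RefSeq on GRCm38.p6, run 5′ to 3′ on the strand of the gene, and have CG pairs in capitals. The windows are chr16:72662899-72663148 for Robo1, chr3:141465314-141465563 for Unc5c, chr5:12382916-12383165 for Sema3d and chr16:35541112-35541361 for Sema5b, all on the plus strand.
Robo1: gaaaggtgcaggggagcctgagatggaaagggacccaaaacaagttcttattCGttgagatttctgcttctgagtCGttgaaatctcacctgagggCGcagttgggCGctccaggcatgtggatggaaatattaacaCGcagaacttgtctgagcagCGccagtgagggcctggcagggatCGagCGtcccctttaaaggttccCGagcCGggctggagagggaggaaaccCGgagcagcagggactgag
Unc5c: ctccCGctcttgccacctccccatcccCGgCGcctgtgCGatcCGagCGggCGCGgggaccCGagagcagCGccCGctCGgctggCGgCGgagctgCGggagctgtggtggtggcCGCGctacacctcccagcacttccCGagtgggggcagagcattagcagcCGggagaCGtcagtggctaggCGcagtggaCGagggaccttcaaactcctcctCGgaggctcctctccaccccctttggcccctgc
Sema3d: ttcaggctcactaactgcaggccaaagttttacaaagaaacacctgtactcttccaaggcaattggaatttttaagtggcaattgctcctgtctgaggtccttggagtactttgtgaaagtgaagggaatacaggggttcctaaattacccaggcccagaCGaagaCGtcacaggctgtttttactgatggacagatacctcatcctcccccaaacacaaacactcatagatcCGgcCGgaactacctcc
Sema5b: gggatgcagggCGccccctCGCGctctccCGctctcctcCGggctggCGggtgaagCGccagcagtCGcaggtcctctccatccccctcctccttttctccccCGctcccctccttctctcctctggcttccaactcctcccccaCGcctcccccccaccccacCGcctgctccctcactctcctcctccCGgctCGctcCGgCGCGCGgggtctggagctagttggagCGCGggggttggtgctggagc
CG pairs on the strand shown numbered 11 for Robo1, 23 for Unc5c, 4 for Sema3d and 19 for Sema5b. The median was 6 in 27025 RefSeq windows of the same length. These take the first listed start of each gene symbol, as do the windows shown. The Sema5b window had more CG pairs than 80.4% of these windows, and the Sema3d window more than 38.1%. RefSeq windows were found for 68 of the 80 genes. Over the 53 of them whose mRNA was tested, the median was 16 CG pairs and the median GC content 65.6%, against 52% GC for all windows. The set of all windows includes genes whose mRNA was not tested. The letters TATAAA, searched on both strands, were in none of the 4 windows shown and in 2 of the 53 (3.77%), against 13% of all windows. GENCODE begins Robo1 at 72308306 of chromosome 16 and Unc5c at 141465216 of chromosome 3, upstream of the windows shown. It begins Sema5b at 35541145 of chromosome 16, inside the Sema5b window, and Sema3d at 12383385 of chromosome 5, downstream of the Sema3d window. These windows therefore need not stand for every start of the genes.

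The reads on genes added up to 29507665 in the smallest and 41197931 in the largest library, and 3 reads, the floor for calling a gene present, corresponded to 0.0710 to 0.101 CPM. Floors and intervals on counts cover counting error only. The variance between replicate libraries was 2.20 to 39.2 times the counting noise, and replicate 3 stood apart in control and HD-het cells. Htt mRNA was 99.97 ± 6.00 CPM in control, 62.3 ± 1.51 CPM in HD-het and 20.2 ± 1.29 CPM in HD-homo cells (mean ± SD, n = 3), and these counts do not show the length of its repeat. The summed level of 8 neuronal markers was 93.8 to 118 CPM over all libraries and that of 8 markers of striatal projection neurons 89.8 to 99.8 CPM in control, 114 to 118 CPM in HD-het and 161 to 183 CPM in HD-homo cells, most of it Map2, Tubb3 and Foxp1, and 4 of 8 in each list passed the filter. Of the neuronal markers, Rbfox3, Snap25 and Gad1 were at or under the floor in every library, as were Drd1 and Drd2 among the markers of striatal projection neurons. The summed level of 6 mesenchymal and smooth muscle markers was 4479 to 5585 CPM in control, 13500 to 15627 CPM in HD-het and 5987 to 6604 CPM in HD-homo cells. Of these 6, 4 were higher and 2 lower in HD-homo cells than in control cells, against 29.6% and 28.9% of all tested genes. Their median log2 fold change without its sign was 4.01, so the sum hides changes in opposite directions. The summed level of 6 neural progenitor markers was 5894 to 6357 CPM in control, 5323 to 5828 CPM in HD-het and 4158 to 4576 CPM in HD-homo cells, and of 5 tested, 4 were lower and 1, Fabp7, was higher in HD-homo cells than in control cells. Nes, Sox2 and Pax6 fell the most, with means of 526 ± 34.6, 128 ± 11.2 and 32.1 ± 0.605 CPM in control and 28.4 ± 6.52, 5.48 ± 0.436 and 0.132 ± 0.0327 CPM in HD-homo cells (SD, n = 3), while Vim, which makes up most of the sum, had a log2 fold change of -0.34 (adjusted p = 0.0026) and Fabp7 of 1.33 (adjusted p = 0.015). Summed markers of astrocytes, oligodendrocytes, endothelial and epithelial cells reached at most 18.6, 2.86, 1.55 and 3.67 CPM in any library, and those of microglia 12.2 to 16.0 CPM in control, 42.6 to 52.4 CPM in HD-het and 13.2 to 14.5 CPM in HD-homo cells, with Aif1 and Itgam at or under the floor. These marker levels moved with the lines, and their part in the differences described here was not tested. In bulk RNA, fewer cells with a transcript and less of it per cell cannot be told apart.

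Most of the guidance genes had detectable mRNA. Of the 80 genes, 62 (77.5%) passed edgeR's filter on low counts, against 37.1% of all listed genes, and 60 of these were among the 71 guidance genes. Mean levels of 1 CPM or more were found for 47 genes in control, 51 in HD-het and 47 in HD-homo cells, and levels of 100 CPM or more for 9, 10 and 7. Per kilobase of exon, the most abundant guidance mRNA was Epha2 in control cells (94.6 CPM per kb), Sema7a in HD-het cells (86.7 CPM per kb) and Sema3c in HD-homo cells (85.1 CPM per kb). Epha2, Plxnb2, Plxna1 and Sema7a were among the 6 highest per kilobase in all 3 lines. Unc5b ranked 3 in control and HD-het cells, at 52.0 and 63.1 CPM per kb, and was not among the 10 highest in HD-homo cells, at 7.65 CPM per kb. No read was counted in any library on Epha5, Robo4, Plxna4os1, Slitrk1 or Slitrk6. Another 13 genes had reads but too few to be tested, among them Dcc, the netrin receptor, with at most 3 reads in a library, Unc5a with at most 15, Robo3 with at most 11 and Epha8 with at most 16.

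The lines were compared by edgeR's quasi-likelihood test, two-sided and with Benjamini-Hochberg adjustment over all 13508 tested genes, and a gene was called at an adjusted p under 0.05. In brackets, log2 stands for the log2 fold change ± its standard error from this fit. Calls were frequent across the transcriptome, so counts of guidance genes are given beside the share of all tested genes. Between HD-homo and control cells 44 of the 62 tested genes were called, where 58.6% of all tested genes were. Of these, 18 were higher in HD-homo cells and 26 lower, against 29.6% and 28.9% of all tested genes. Calls with 1 or more on the log2 scale in either direction came to 29 of the 62 genes (46.8%), against 19.1% of all tested genes. Between HD-het and control cells 41 were called (all tested genes 65.1%), 29 of them higher and 12 lower in HD-het cells (33.8% and 31.4%), and 24 (38.7%) were called at 1 or more on the log2 scale (18.4%). Between HD-homo and HD-het cells 49 were called (71.6%), 15 higher and 34 lower in HD-homo cells (36.0% and 35.6%), and 34 (54.8%) were called at 1 or more on the log2 scale (24.3%). The median log2 fold change of the tested members was -0.14 between HD-homo and control, 0.25 between HD-het and control and -0.68 between the HD lines, against 0.0077, 0.025 and 0.0017 for all tested genes. With Plxnb3 and Unc5d, which had no read in HD-homo cells, set at their bound, the first of these medians was -0.061. Of the 62 genes, 13 had under 10 reads in every library of at least 1 line and so passed the filter only through lines in which they were higher, which favours a call.

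The highest mean level was most often that of HD-het cells, among the members as among all tested genes. This was so for 27 of the 62 members (43.5%) and for 37.7% of all tested genes. Control cells were highest for 19 members (30.6%, all genes 27.4%) and HD-homo cells for 16 (25.8%, all genes 34.9%). The lowest mean was that of HD-homo cells for 28 members (45.2%), of control cells for 23 (37.1%) and of HD-het cells for 11 (17.7%), against 34.1%, 30.0% and 35.9% of all tested genes.

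**Figure D1:**
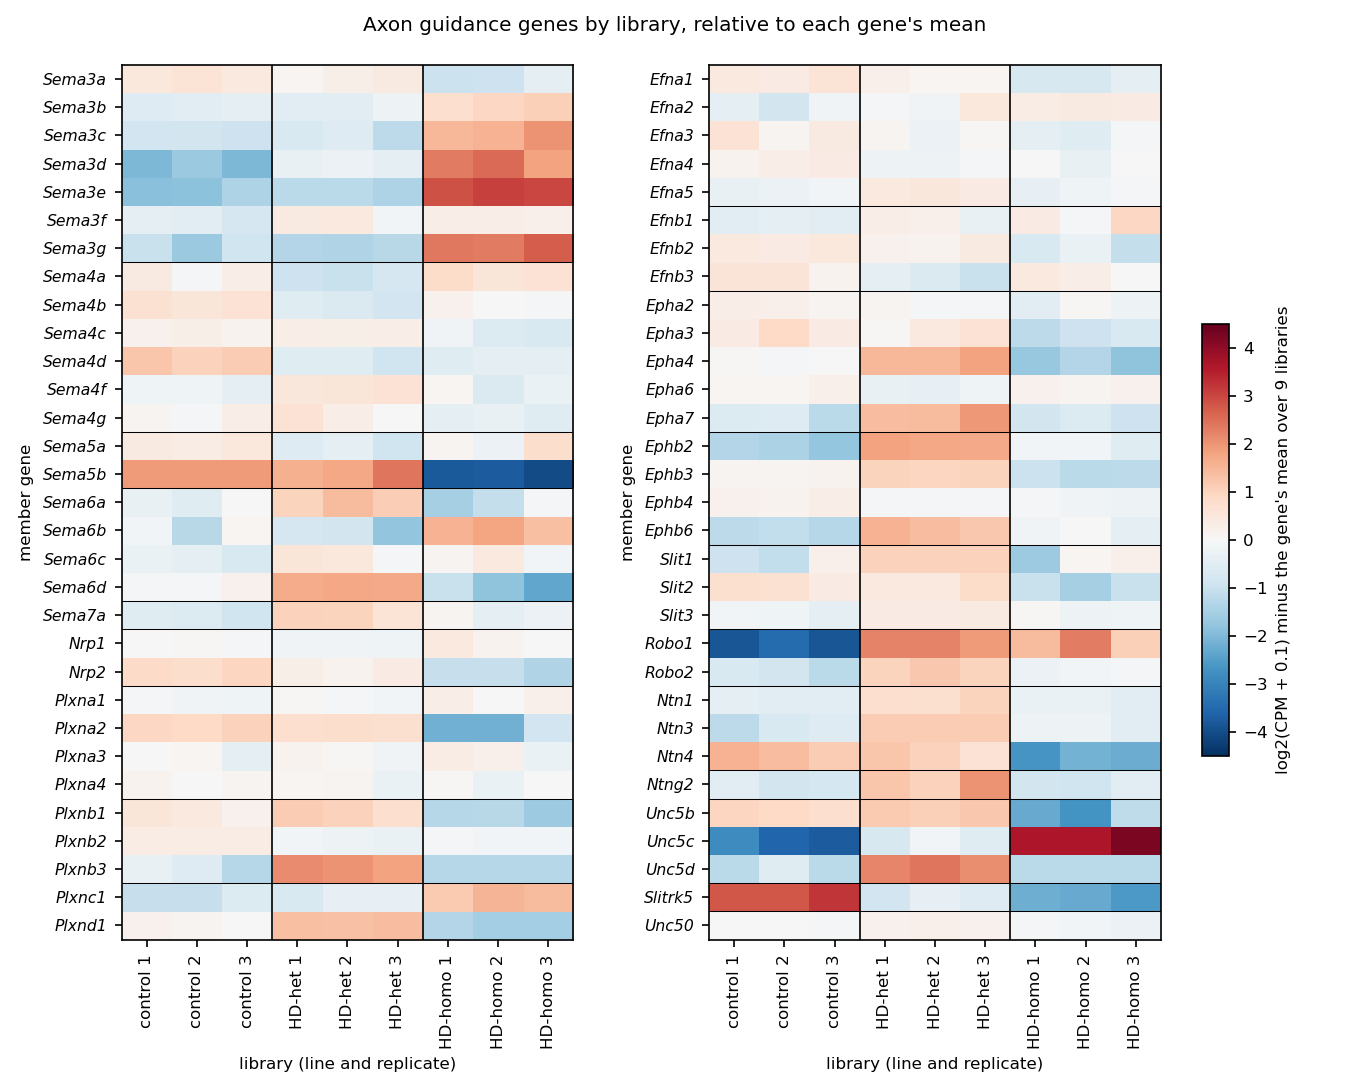
Level of the 62 tested genes (rows, grouped by family with lines between families) in the 9 libraries (columns), as log2(CPM + 0.1) minus the gene's mean over all libraries. Robo1 and Unc5c were lowest in the control libraries, Sema5b was lowest in the HD-homo libraries, and Sema3d, Sema3e and Sema3g were highest there.

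Among netrin and Slit ligands, HD-het cells had more mRNA than control cells for 5 of the 7 tested genes and less for none, and HD-homo cells had less than HD-het cells for all 7 tested. Against control cells, 2 of the 7 were lower in HD-homo cells and none was higher. The share called was 71.4% between HD-het and control (all tested genes 65.1%), 28.6% between HD-homo and control (58.6%) and 100% between the HD lines (71.6%). Ntng2 had under 10 reads in every control and HD-homo library and passed the filter only through HD-het cells, which favours a call. Ntn1 (chr11:68209364-68400823, minus strand), which encodes the netrin that both attracts and repels axons, had 28.3, 27.2 and 27.9 CPM in control, 65.3, 64.5 and 78.6 in HD-het and 31.6, 31.5 and 27.9 in HD-homo cells. The HD-het libraries were all above the others, and the control and HD-homo libraries overlapped. Ntn1 was 2.5-fold higher in HD-het cells than in control cells (log2 1.32 ± 0.0867, adjusted p = 2.7e-07 in edgeR's quasi-likelihood test) and 2.29-fold lower in HD-homo cells than in HD-het cells (log2 -1.19 ± 0.0860, adjusted p = 2.7e-07 in the same test). Between HD-homo and control cells its log2 fold change was 0.13 (adjusted p = 0.24), and without replicate 3 of every line it was 0.19 (adjusted p = 0.041).

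Ntn4 (chr10:93640681-93747207, plus strand), a netrin of basement membranes that binds laminin, had 17.0, 15.0 and 12.6 CPM in control, 13.5, 11.9 and 9.07 in HD-het and 0.828, 1.23 and 1.13 in HD-homo cells. The HD-homo libraries were the low ones, and the control and HD-het libraries overlapped. Ntn4 fell 14-fold against control cells (log2 -3.79 ± 0.204, adjusted p = 3.6e-08 in edgeR's quasi-likelihood test) and 10.8-fold against HD-het cells (log2 -3.42 ± 0.205, adjusted p = 6.1e-08 in the same test). The HD-het value against control cells was -0.37 (adjusted p = 0.061) and passed the threshold in 5 of 13 alternatives, 2 of them those without control replicate 3 (-0.48, adjusted p = 0.034) or HD-het replicate 1 (-0.50, adjusted p = 0.029). Ntn3, a close relative of Ntn1, was low in all lines, with 0.436, 0.654 and 0.710 CPM in control, 2.59, 2.56 and 2.61 in HD-het and 0.95, 0.947 and 0.746 in HD-homo cells. Every HD-het library was above all others, and the HD-homo libraries were above those of control cells. It was 4.31-fold higher in HD-het cells than in control cells (log2 2.11 ± 0.202, adjusted p = 4.5e-06 in the same test). Its HD-homo value against control cells missed the threshold at 0.56 (adjusted p = 0.051) and passed it in 4 of 13 alternatives. Without control replicate 3 it was 0.69 (adjusted p = 0.043), and without HD-homo replicate 3 it was 0.66 (adjusted p = 0.035). The netrin-G gene Ntng2, whose product is held in the membrane and binds a synaptic adhesion protein, had 4 reads in all control libraries together, 56 in HD-het and 4 in HD-homo cells. The ratio of its read rate in HD-het to that in control cells was 13.1, 95% interval 4.85 to 49.9 (exact, from the counts alone). Of the exon bases of Ntng2, 14% overlap another gene on the same strand and 9.89% of its 50-base words occur in other genes, so that its reads may be shared.

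Slit2 (chr5:47983138-48307733, plus strand), a secreted repellent, had 55.4, 55.1 and 44.3 CPM in control, 46.1, 45.8 and 59.8 in HD-het and 17.0, 11.9 and 16.9 in HD-homo cells. All HD-homo libraries were below the others, and control and HD-het libraries overlapped. It fell 3.37-fold in HD-homo against control cells (log2 -1.76 ± 0.155, adjusted p = 2.2e-06 in edgeR's quasi-likelihood test) and 3.30-fold against HD-het cells (log2 -1.73 ± 0.154, adjusted p = 1.6e-06 in the same test). Slit3 (chr11:35121224-35708507, plus strand), the most abundant Slit by mean CPM over the 9 libraries, had 55.1, 52.8 and 45.1 CPM in control, 79.1, 77.6 and 81.0 in HD-het and 62.3, 51.4 and 53.6 in HD-homo cells. In control cells Slit2 and Slit3 had similar means, at 51.6 and 51.0 CPM. Its highest libraries were those of HD-het cells, 1.55-fold above control cells (log2 0.63 ± 0.0881, adjusted p = 7.4e-05 in the same test), and HD-homo and control libraries overlapped at a log2 fold change of 0.13 (adjusted p = 0.24). Slit1 had 0.218, 0.178 and 0.609 CPM in control, 1.13, 1.13 and 1.14 in HD-het and 0.0920, 0.545 and 0.596 in HD-homo cells. Its HD-het libraries were alike and above all others. HD-het cells were 3.38-fold higher than control cells (log2 1.78 ± 0.492, adjusted p = 0.0079 in the same test), and without control replicate 3, the highest of its line, the log2 fold change was 2.49 (adjusted p = 0.003).

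Among the receptors of this system, Robo1 and Unc5c had the largest increases in HD-homo cells. Of 5 tested Robo and Unc5 genes, 3 were higher and 1 lower in HD-homo cells than in control cells, and 4 were higher and none lower in HD-het cells, or 80% called in each, where 58.6% and 65.1% of all tested genes were. Robo1, Unc5c and Unc5d had under 10 reads in every control library and passed the filter only through HD lines, which favours a call. Robo1 (chr16:72308306-73046095, plus strand), a Slit receptor, had reads of 0, 1 and 0 in control, 237, 219 and 179 in HD-het and 125, 298 and 99 in HD-homo cells. In CPM this was 0, 0.0297 and 0 CPM in control, 6.68, 6.68 and 5.36 in HD-het and 3.83, 7.06 and 2.95 in HD-homo cells. Robo1 mRNA was at 1 read in the 3 control libraries together and present in all 6 HD libraries, which overlapped between the HD lines. The ratio of its read rate to that in control cells was 459, 95% interval 82.1 to 18174 in HD-homo cells and 596, 95% interval 107 to 23563 in HD-het cells (exact, from the counts alone). edgeR's quasi-likelihood test gave adjusted p = 1.1e-06 and 6.6e-07. Without control replicate 2, the only control library with a read on it, its log2 fold changes were 10.31 in HD-homo and 10.73 in HD-het cells, against 8.36 and 8.78 with it. Between the HD lines the log2 fold change was -0.42 (adjusted p = 0.18), which passed the threshold in 2 of 13 alternatives, at -0.88 (adjusted p = 0.0014) without HD-homo replicate 2. Robo2 (chr16:73891839-74411825, minus strand) was lower than Robo1 in the HD lines and had 0.342, 0.297 and 0.203 CPM in control, 1.33, 1.52 and 1.32 in HD-het and 0.491, 0.545 and 0.567 in HD-homo cells. It was highest in HD-het cells, 4.95-fold above control cells (log2 2.28 ± 0.232, adjusted p = 6.9e-06 in the same test). The increase in HD-homo cells was 1.90-fold (log2 0.91 ± 0.262, adjusted p = 0.011 in the same test), which missed the threshold in 3 of 13 alternatives, at 0.74 (adjusted p = 0.065) without control replicate 3.

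Unc5b and Unc5c, which encode repulsive netrin receptors, moved in opposite directions in HD-homo cells. Unc5b (chr10:60762593-60831581, minus strand) had 344, 331 and 300.3 CPM in control, 404, 373 and 408 in HD-het and 36.4, 27.4 and 79.9 in HD-homo cells. Every HD-homo library was below every library of the other lines, and HD-homo replicate 3 was the highest of its line. Unc5b fell 6.79-fold against control cells (log2 -2.77 ± 0.303, adjusted p = 1.4e-05 in edgeR's quasi-likelihood test), with a log2 fold change of -3.36 without HD-homo replicate 3 (adjusted p = 2e-09). Against HD-het cells the fall was 8.25-fold (log2 -3.05 ± 0.306, adjusted p = 4.1e-06 in the same test), or -3.64 on the log2 scale without that library. The HD-het libraries were above all control libraries, at a log2 fold change of 0.28 (adjusted p = 0.40 in the same test). With only these 2 lines in the fit it was 0.28 with adjusted p = 0.0024. Unc5c (chr3:141465216-141834924, plus strand) had reads of 7, 3 and 2 in control, 44, 64 and 48 in HD-het and 894, 1178 and 1417 in HD-homo cells. In CPM this was 0.218, 0.0892 and 0.0676 CPM in control, 1.24, 1.95 and 1.44 in HD-het and 27.4, 27.9 and 42.3 in HD-homo cells. No libraries overlapped between lines, and the order was control, HD-het, HD-homo. Unc5c was 260.5-fold higher in HD-homo cells than in control cells (log2 7.97 ± 0.328, adjusted p = 4.2e-09 in the same test), with a log2 fold change of 8.62 without control replicate 1. The HD-het level was 12.4-fold that of control cells (log2 3.57 ± 0.467, adjusted p = 4.7e-05 in the same test), and 4.22 on the log2 scale without that library. Between the HD lines it was 21.1-fold higher in HD-homo cells (log2 4.40 ± 0.225, adjusted p = 1.8e-08 in the same test). Per kilobase, Unc5b was above Unc5c in every line, at 7.65 against 1.70 CPM per kb in HD-homo cells. Unc5d had 2 reads in control, 101 in HD-het and 0 in HD-homo libraries together. The ratio of its read rate in HD-het to that in control cells was 47.4, 95% interval 12.8 to 396 (exact, from the counts alone), with a log2 fold change of 5.34, or 8.08 without control replicate 2, which held both control reads. It was at least 11.8-fold lower in HD-homo cells than in HD-het cells, with the floor taken per library. Neogenin (Neo1), a netrin receptor outside the symbol rule, had 175 ± 17.4 CPM in control, 182 ± 7.19 CPM in HD-het and 153 ± 20.8 CPM in HD-homo cells (SD, n = 3). Its libraries overlapped in all comparisons, and its log2 fold change was -0.19 (adjusted p = 0.12) between HD-homo and control and -0.25 (adjusted p = 0.036) between the HD lines. The second missed the threshold in 5 of 13 alternatives, among them those without HD-het replicate 1 or 2 or HD-homo replicate 1 or 2. Over all 13 its values were -0.40 to -0.18, with adjusted p up to 0.12. The first ran from -0.31 to -0.11 and passed the threshold without HD-homo replicate 3 and without replicate 3 of every line.

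**Figure D2:**
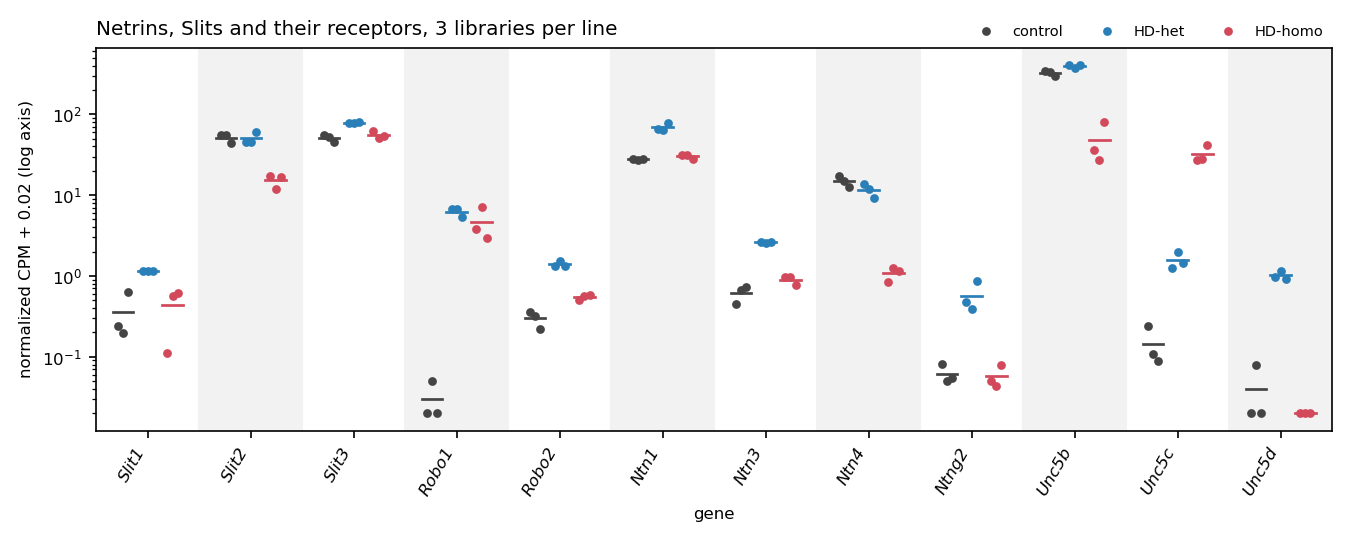
Normalized CPM + 0.02 on a log axis of the 12 tested Slit, Robo, netrin, netrin-G and Unc5 genes, with 1 point per library and a bar at the mean of each line. Unc5c rose from control over HD-het to HD-homo cells, Unc5b and Ntn4 were low in HD-homo cells, and Robo1 was near 0 in control cells.

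Class 3 semaphorins were the family with the most increases in HD-homo cells. All 7 genes of the class were tested, and against control cells 6 were higher in HD-homo cells and 1, Sema3a, was lower, while in HD-het cells 3 were higher and none lower. All 7 were thus called in HD-homo cells, where 58.6% of all tested genes were, and 42.9% in HD-het cells, where 65.1% were. Sema3d had under 10 reads in every control and HD-het library and passed the filter only through HD-homo cells, which favours a call. Sema3g had under 10 reads in every HD-het library and in control replicate 2. It likewise passed the filter only with the HD-homo libraries, which favours its call as higher there. Their summed level was 167 to 184 CPM in the control libraries, 166 to 225 CPM in the HD-het libraries and 649 to 880 CPM in the HD-homo libraries, most of it Sema3c. Sema3c (chr5:17574281-17730268, plus strand), known for its part in the cardiac outflow tract and in cell migration, had 102, 104 and 97.2 CPM in control, 117, 126 and 82.6 in HD-het and 527, 547 and 748 in HD-homo cells. All HD-homo libraries were above all others, and control and HD-het libraries overlapped. Sema3c rose 6.01-fold against control cells (log2 2.59 ± 0.164, adjusted p = 1.4e-07 in edgeR's quasi-likelihood test) and 5.61-fold against HD-het cells (log2 2.49 ± 0.163, adjusted p = 1.2e-07 in the same test). Between HD-het and control cells the log2 fold change was 0.10 (adjusted p = 0.59), and without replicate 3 of every line it was 0.24 (adjusted p = 0.0096).

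Sema3e (chr5:14025276-14256689, plus strand), which binds plexin D1 without a neuropilin, had 1.46, 1.49 and 2.10 CPM in control, 2.34, 2.35 and 2.10 in HD-het and 41.4, 47.6 and 46.2 in HD-homo cells. The HD-homo libraries were far above the others, 26.8-fold over control cells (log2 4.75 ± 0.127, adjusted p = 1.3e-10 in edgeR's quasi-likelihood test) and 19.9-fold over HD-het cells (log2 4.32 ± 0.122, adjusted p = 1.6e-10 in the same test). The HD-het value against control cells, 0.44 (adjusted p = 0.027), missed the threshold without control replicate 1 (0.35, adjusted p = 0.10), without control replicate 2 (0.35, adjusted p = 0.10), without HD-het replicate 1 (0.41, adjusted p = 0.073) or without HD-het replicate 2 (0.41, adjusted p = 0.069). Sema3g (chr14:31217860-31230352, plus strand) had 0.342, 0.178 and 0.372 CPM in control, 0.254, 0.244 and 0.270 in HD-het and 4.45, 4.33 and 5.76 in HD-homo cells. Sema3g was 16.3-fold higher in HD-homo cells than in control cells (log2 4.02 ± 0.239, adjusted p = 8.0e-08 in the same test), and control and HD-het libraries overlapped at levels under 1 CPM. Sema3d (chr5:12383385-12588948, plus strand) had reads of 0, 1 and 0 in control, 8, 8 and 7 in HD-het and 64, 97 and 45 in HD-homo cells. The ratio of its read rate to that in control cells was 181, 95% interval 32.2 to 7193 in HD-homo and 21.6, 95% interval 3.50 to 889 in HD-het cells (exact, from the counts alone), with adjusted p = 5.2e-07 and 9.8e-04 in the same test. Its log2 fold changes were 7.05 and 4.02, and 9.00 and 5.96 without control replicate 2. Sema3d, Sema3a, Sema3e and Sema3c lie in this order on chromosome 5, and in HD-homo cells Sema3a was lower than in control cells and the other 3 higher.

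Sema3a (chr5:13125414-13602565, plus strand), the growth cone collapsing factor that acts through Nrp1 and A-type plexins, had 40.4, 44.7 and 39.1 CPM in control, 30.4, 34.6 and 38.1 in HD-het and 14.5, 15.2 and 21.9 in HD-homo cells. It fell 2.41-fold in HD-homo against control cells (log2 -1.27 ± 0.144, adjusted p = 1.8e-05 in edgeR's quasi-likelihood test). Sema3b rose to 3.16 ± 0.350 CPM in HD-homo cells from 1.13 ± 0.0826 CPM in control cells (SD, n = 3), a log2 fold change of 1.49 (adjusted p = 1.6e-05). Sema3f, which acts through Nrp2, was higher than in control cells in both HD lines, with log2 fold changes of 0.81 (adjusted p = 3.9e-04) in HD-homo and 0.79 (adjusted p = 3.9e-04) in HD-het cells.

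The co-receptors of this class differed in direction between the HD lines, where Nrp2 was lower and Nrp1 higher in HD-homo cells. Nrp2 (chr1:62703285-62818695, plus strand) had 228, 217 and 243 CPM in control, 150.2, 142 and 162 in HD-het and 61.7, 61.8 and 49.0 in HD-homo cells. The libraries of the 3 lines did not overlap, and Nrp2 fell 3.98-fold in HD-homo cells (log2 -1.99 ± 0.0940, adjusted p = 1.2e-08 in edgeR's quasi-likelihood test) and 1.52-fold in HD-het cells (log2 -0.60 ± 0.0903, adjusted p = 1.4e-04 in the same test) against control cells. Nrp1 (chr8:128358604-128503363, plus strand) had 134, 143 and 127 CPM in control, 122, 124 and 119 in HD-het and 185, 151 and 137 in HD-homo cells. HD-homo and control libraries overlapped at a log2 fold change of 0.22 (adjusted p = 0.066), which passed the threshold in 3 of 13 alternatives, at 0.31 (adjusted p = 0.0085) without HD-homo replicate 3. HD-homo cells had 1.3-fold more Nrp1 mRNA than HD-het cells (log2 0.38 ± 0.0954, adjusted p = 0.0042 in the same test). Between HD-het and control cells the log2 fold change of Nrp1 was -0.15 (adjusted p = 0.18 in the same test). With only these 2 lines in the fit it was -0.16 with adjusted p = 0.025. Per kilobase, Nrp2 was above Nrp1 in control cells, at 19.3 against 13.8 CPM per kb, and below it in HD-homo cells, at 4.86 against 16.1 CPM per kb.

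Of the 9 plexins, 2 were higher and 5 lower in HD-homo cells than in control cells, and 3 were higher and 1 lower in HD-het cells. This is 77.8% called in HD-homo cells, where 58.6% of all tested genes were, and 44.4% in HD-het cells, where 65.1% were. The 5 lower in HD-homo cells include Plxnb3, whose call rests on counts at or under the floor and was lost in 6 of 12 alternatives. Plxnb3 passed the filter only through HD-het and Plxnc1 only through HD-homo cells, which favours their calls as higher there. Plxnd1 (chr6:115954811-115995005, minus strand), the receptor of Sema3e, had 165, 159 and 144 CPM in control, 374, 360.1 and 377 in HD-het and 57.8, 49.5 and 49.96 in HD-homo cells. HD-het libraries were highest and HD-homo libraries lowest, with no overlap between lines. Plxnd1 was 2.38-fold higher in HD-het cells than in control cells (log2 1.25 ± 0.0728, adjusted p = 1.1e-07 in edgeR's quasi-likelihood test), 2.97-fold lower in HD-homo cells than in control cells (log2 -1.57 ± 0.0747, adjusted p = 1.3e-08 in the same test) and 7.07-fold lower in HD-homo cells than in HD-het cells (log2 -2.82 ± 0.0773, adjusted p = 1.2e-10 in the same test). In HD-homo cells, then, the ligand Sema3e was at its highest level of the 3 lines and this receptor at its lowest. Plxna2 (chr1:194618218-194816869, plus strand) had 77.7, 74.8 and 82.8 CPM in control, 68.5, 69.3 and 66.0 in HD-het and 8.95, 9.00 and 22.2 in HD-homo cells. It fell 5.85-fold in HD-homo against control cells (log2 -2.56 ± 0.274, adjusted p = 1.2e-05 in the same test), and HD-homo replicate 3 was the highest of its line. Against HD-het cells its log2 fold change was -2.35 (adjusted p = 1.4e-05), and -2.94 (adjusted p = 5.7e-09) without replicate 3 of every line. The HD-het libraries were below all control libraries, at a log2 fold change of -0.21 (adjusted p = 0.49 in the same test). With only these 2 lines in the fit it was -0.21 with adjusted p = 0.0063. Plxnb1, the receptor of Sema4d, was 45.5 ± 5.51 CPM in control, 68.2 ± 8.90 CPM in HD-het and 13.2 ± 1.86 CPM in HD-homo cells (SD, n = 3), with log2 fold changes of -1.79 (adjusted p = 5.3e-07) in HD-homo and 0.58 (adjusted p = 0.0016) in HD-het against control cells.

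Plxnb2 and Plxna1, which had the most reads of the plexins, had log2 fold changes under 1 in size in all comparisons. Plxnb2 (chr15:89155549-89180788, minus strand) had 664, 653 and 657 CPM in control, 478, 443 and 424 in HD-het and 497, 477 and 480.2 in HD-homo cells. The libraries of both HD lines were below all control libraries and overlapped with each other. Plxnb2 was 1.36-fold lower in HD-homo (log2 -0.44 ± 0.0571, adjusted p = 5.2e-05 in edgeR's quasi-likelihood test) and 1.47-fold lower in HD-het cells (log2 -0.55 ± 0.0572, adjusted p = 7.9e-06 in the same test). Plxna1 (chr6:89316314-89362620, minus strand) had 445, 422 and 409 CPM in control, 484, 452 and 434 in HD-het and 574, 460.4 and 553 in HD-homo cells. HD-homo libraries were above all control libraries and overlapped with those of HD-het cells. HD-homo cells were 1.24-fold above control cells (log2 0.31 ± 0.0827, adjusted p = 0.0071 in the same test), and without replicate 3 of every line the log2 fold change of 0.25 missed the threshold (adjusted p = 0.057). The Plxna1 difference between the HD lines, 0.21 (adjusted p = 0.037), missed it in 6 of 13 alternatives, among them those without HD-het replicate 2 or 3 or HD-homo replicate 1 or 3, with log2 fold changes of 0.15 to 0.20 and adjusted p of up to 0.14 in these 4. Of the exon bases of Plxna1, 10.7% overlap a gene on the other strand, and the strand setting of the counting is not given in the sources used here. Plxna3 and Plxna4 were not called in any comparison. Plxnb3 was at 88 reads in the HD-het libraries together, 5 in control and 0 in HD-homo libraries, so it was at least 10.3-fold lower in HD-homo cells than in HD-het cells, with the floor taken per library. The Plxnb3 call between HD-homo and control cells rests on counts at or under the floor, and no fold change is given. Plxnc1, the plexin that binds Sema7a, had 1 read in control, 5 in HD-het and 48 in HD-homo libraries together, and the ratio of its read rate in HD-homo to that in control cells was 42.2, 95% interval 7.23 to 1702 (exact, from the counts alone). Its log2 fold change of 4.97 ran from 4.48 to 6.95 over the alternatives and rests on the single control read, in replicate 3.

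**Figure D3:**
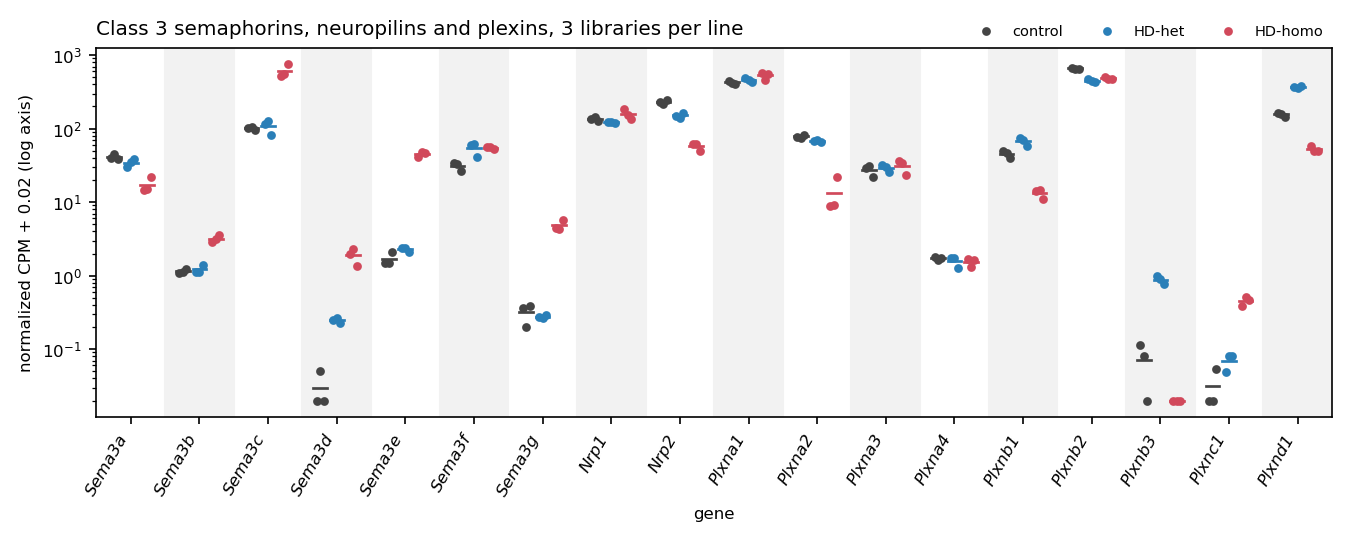
Normalized CPM + 0.02 on a log axis of the 7 class 3 semaphorins, the 2 neuropilins and the 9 plexins, with 1 point per library and a bar at the mean of each line. Sema3b, Sema3c, Sema3d, Sema3e and Sema3g were highest in HD-homo cells, where Nrp2, Plxna2, Plxnb1 and Plxnd1 were lowest.

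The membrane-anchored semaphorins, 13 genes of classes 4 to 7, did not share a direction. In class 4, 4 of 6 genes were lower in HD-homo cells than in control cells and none was higher, and in HD-het cells 3 were lower and 1 higher, or 66.7% called in each, where 58.6% and 65.1% of all tested genes were. Sema4a had under 10 reads in every HD-het library and passed the filter only through the other lines, which favours a call. Sema4d (chr13:51685529-51793747, minus strand), the ligand of plexin B1, had 15.1, 13.0 and 13.9 CPM in control, 4.29, 4.30 and 3.35 in HD-het and 4.23, 4.64 and 4.56 in HD-homo cells. Both HD lines were below all control libraries and overlapped with each other. Sema4d fell 3.13-fold in HD-homo (log2 -1.64 ± 0.117, adjusted p = 3.9e-07 in edgeR's quasi-likelihood test) and 3.52-fold in HD-het cells (log2 -1.81 ± 0.119, adjusted p = 2.7e-07 in the same test). Sema4b (chr7:80186841-80226527, plus strand), the most abundant of class 4, had 58.1, 53.1 and 57.7 CPM in control, 24.8, 23.4 and 20.1 in HD-het and 42.1, 36.5 and 34.8 in HD-homo cells. It was lowest in HD-het cells, 2.48-fold below control cells (log2 -1.31 ± 0.0951, adjusted p = 5.7e-07 in the same test), and HD-homo cells lay between (log2 -0.58 ± 0.0927, adjusted p = 2.7e-04 against control cells in the same test). Sema4a, Sema4c, Sema4f and Sema4g ranged from 0.207 to 21.0 CPM in mean level. The Sema4g fall in HD-homo cells, -0.58 (adjusted p = 0.039), missed the threshold in 7 of 13 alternatives. Among these were the fits without control replicate 1 or 3 or without any 1 of the HD-homo libraries. Over all 13 its log2 fold changes were -0.69 to -0.42, with adjusted p up to 0.16.

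Sema5b had the largest fall of the guidance genes in HD-homo against control cells. Its product, like that of Sema5a, carries thrombospondin repeats outside the cell. Sema5b (chr16:35541145-35664732, plus strand) had 9.83, 9.69 and 9.84 CPM in control, 7.90, 8.69 and 13.9 in HD-het and 0.0920, 0.0947 and 0.0596 in HD-homo cells. HD-homo libraries held 9 reads in all, and control and HD-het libraries overlapped. Sema5b passed the filter only through control and HD-het cells, which favours a call as lower in HD-homo cells. The ratio of its read rate in control to that in HD-homo cells was 118, 95% interval 61.8 to 258 (exact, from the counts alone), with adjusted p = 1.8e-08 in edgeR's quasi-likelihood test, and between HD-het and control cells the log2 fold change was 0.05 (adjusted p = 0.81). Sema5a (chr15:32244810-32696341, plus strand) had 43.8, 42.4 and 46.7 CPM in control, 22.6, 24.8 and 17.7 in HD-het and 36.5, 28.0 and 58.5 in HD-homo cells. It was 2.04-fold lower in HD-het cells than in control cells (log2 -1.03 ± 0.220, adjusted p = 0.0016 in the same test). The HD-homo value against control cells was -0.11 (adjusted p = 0.67), and without HD-homo replicate 3, which was above every other library, it was -0.46 (adjusted p = 0.015), 1 of 2 alternatives under which it passed the threshold.

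Sema6d (chr2:124089969-124667770, plus strand), which binds plexin A1, had 1.93, 1.93 and 2.37 CPM in control, 6.80, 7.22 and 7.04 in HD-het and 0.981, 0.521 and 0.328 in HD-homo cells. HD-het libraries were highest and HD-homo libraries lowest. It was 3.38-fold higher in HD-het cells than in control cells (log2 1.76 ± 0.217, adjusted p = 3.1e-05 in edgeR's quasi-likelihood test) and 11.5-fold lower in HD-homo cells than in HD-het cells (log2 -3.53 ± 0.253, adjusted p = 2.6e-07 in the same test). Sema6b ran the other way at a lower level, with 0.311, 0.0892 and 0.372 CPM in control, 0.169, 0.152 and 0.0300 in HD-het and 1.23, 1.42 and 1.04 in HD-homo cells. All HD-homo libraries were above all others, and Sema6b was 4.78-fold higher in HD-homo cells than in control cells (log2 2.27 ± 0.394, adjusted p = 4.7e-04 in the same test) and 10.5-fold higher than in HD-het cells (log2 3.35 ± 0.448, adjusted p = 4.1e-05 in the same test). Sema6b had under 10 reads in every HD-het library and in control replicate 2. It passed the filter only with the HD-homo libraries, which favours a call as higher there. Sema6a was highest in HD-het cells, at 0.731 ± 0.137 CPM against 0.202 ± 0.0623 CPM in control cells (SD, n = 3), a log2 fold change of 1.85 (adjusted p = 0.0023). Sema6a had under 10 reads in every control and HD-homo library and passed the filter only through HD-het cells, which favours a call. Sema6c was higher than in control cells in both HD lines, with log2 fold changes of 0.66 (adjusted p = 0.03) in HD-homo and 0.83 (adjusted p = 0.008) in HD-het cells, and the first missed the threshold without control replicate 2 or 3 or HD-homo replicate 1 or 2, with adjusted p up to 0.12 and values of 0.48 to 0.79 over 13 alternatives.

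Sema7a (chr9:57940112-57962865, plus strand), a semaphorin held by a lipid anchor that acts through plexin C1 and integrins, had 104, 100.4 and 82.4 CPM in control, 313, 310.0 and 235 in HD-het and 167, 116 and 127 in HD-homo cells. HD-het libraries were above all others. Sema7a was 2.99-fold higher in HD-het cells than in control cells (log2 1.58 ± 0.151, adjusted p = 4.4e-06 in edgeR's quasi-likelihood test) and 2.09-fold lower in HD-homo cells than in HD-het cells (log2 -1.07 ± 0.149, adjusted p = 5.7e-05 in the same test). Its increase in HD-homo over control cells (log2 0.51 ± 0.149, adjusted p = 0.012 in the same test) was lost without control replicate 3 (0.42, adjusted p = 0.054) or HD-homo replicate 1 (0.34, adjusted p = 0.051).

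All 8 ephrins were tested. Against control cells, 2 rose and 4 fell in HD-homo cells, and 3 rose and 3 fell in HD-het cells, or 75% called in each, where 58.6% and 65.1% of all tested genes were. Efnb2 (chr8:8617434-8661242, minus strand), a ligand of arteries and of many neural boundaries, was the most abundant and had 231, 221 and 235 CPM in control, 193, 188 and 227 in HD-het and 105, 139 and 81.5 in HD-homo cells. The HD-homo libraries were below all others, and control and HD-het libraries overlapped. Efnb2 fell 2.12-fold in HD-homo against control cells (log2 -1.08 ± 0.152, adjusted p = 9.7e-05 in edgeR's quasi-likelihood test). Efna5 (chr17:62604184-62881317, minus strand) had 26.2, 27.2 and 30.3 CPM in control, 44.4, 46.4 and 41.9 in HD-het and 25.5, 29.0 and 31.8 in HD-homo cells. HD-het libraries were above all others. Efna5 was 1.59-fold higher in HD-het cells than in control cells (log2 0.67 ± 0.0897, adjusted p = 6.0e-05 in the same test), and control and HD-homo libraries overlapped. Efnb3 (chr11:69554092-69560205, minus strand), a midline repellent, had 5.44, 5.38 and 3.96 CPM in control, 2.71, 2.23 and 1.74 in HD-het and 4.94, 4.40 and 3.52 in HD-homo cells. HD-het libraries were below all others, and control and HD-homo libraries overlapped. Efnb3 was 2.22-fold lower in HD-het cells than in control cells (log2 -1.15 ± 0.199, adjusted p = 3.9e-04 in the same test).

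Efna1 was 33.8 ± 3.18 CPM in control, 26.7 ± 1.77 CPM in HD-het and 16.1 ± 2.16 CPM in HD-homo cells (SD, n = 3), and its fall in HD-homo cells was -1.08 (adjusted p = 5.3e-06) on the log2 scale. Its HD-het value against control cells, -0.34 (adjusted p = 0.013), missed the threshold without control replicate 3, at -0.23 (adjusted p = 0.061). Efnb1 was 24.9 ± 0.782 CPM in control, 36.8 ± 8.31 CPM in HD-het and 47.8 ± 16.8 CPM in HD-homo cells (SD, n = 3) and ranged from 32.4 to 65.7 CPM among the HD-homo libraries. Its HD-het increase, 0.57 (adjusted p = 0.045), missed the threshold in 7 of 13 alternatives. Among these were the fits without any 1 of the control libraries or without HD-het replicate 1 or 2. Over all 13 its values were 0.45 to 0.74, with adjusted p up to 0.15. The HD-het value of Efna2 against control cells, 0.59 (adjusted p = 0.034), missed the threshold without control replicate 1 or 2 or HD-het replicate 3. Over 13 alternatives it ran from 0.36 to 0.75, with adjusted p up to 0.15. The HD-homo value of Efna4 against control cells, -0.38 (adjusted p = 0.022), missed the threshold without control replicate 2 or 3 or HD-homo replicate 2. Over 13 alternatives it ran from -0.45 to -0.27, with adjusted p up to 0.076. Efna3 fell in HD-homo cells at -0.78 (adjusted p = 0.0058). Of the exon bases of Efna3 and Efna4, 14.1% and 10.5% overlap genes on the other strand.

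Of 9 tested Eph receptors, 5 were higher and 2 lower in HD-het cells than in control cells, 2 were higher and 5 lower in HD-homo cells than in control cells, and 1 was higher and 6 lower in HD-homo cells than in HD-het cells. In each comparison 77.8% were called, where 58.6% to 71.6% of all tested genes were. Epha4 (chr1:77367185-77515088, minus strand), which binds ephrins of both classes, had 9.95, 9.46 and 9.91 CPM in control, 27.6, 27.3 and 34.4 in HD-het and 2.91, 3.86 and 2.68 in HD-homo cells. The lines did not overlap, with HD-het highest and HD-homo lowest. Epha4 was 3.05-fold higher in HD-het (log2 1.61 ± 0.127, adjusted p = 1.0e-06 in edgeR's quasi-likelihood test) and 3.10-fold lower in HD-homo cells than in control cells (log2 -1.62 ± 0.144, adjusted p = 2.4e-06 in the same test), and 9.44-fold lower in HD-homo cells than in HD-het cells (log2 -3.23 ± 0.141, adjusted p = 4.9e-09 in the same test). Ephb3, at 23.6 ± 0.0588 CPM in control, 42.6 ± 0.770 CPM in HD-het and 9.83 ± 0.936 CPM in HD-homo cells (SD, n = 3), had the same order, with 0.85 (adjusted p = 1.8e-06) in HD-het and -1.27 (adjusted p = 9.3e-08) in HD-homo against control cells on the log2 scale.

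Ephb2 (chr4:136647539-136835988, minus strand), a receptor of axons and of excitatory synapses, had 3.05, 2.82 and 2.27 CPM in control, 27.2, 26.3 and 25.2 in HD-het and 7.14, 7.15 and 5.22 in HD-homo cells. The lines did not overlap, and both HD lines were above control cells. Ephb2 was 9.68-fold higher in HD-het (log2 3.27 ± 0.142, adjusted p = 1.4e-08 in edgeR's quasi-likelihood test) and 2.40-fold higher in HD-homo cells than in control cells (log2 1.26 ± 0.148, adjusted p = 2.4e-05 in the same test). Ephb6 (chr6:41605482-41620509, plus strand), whose kinase domain is inactive, had 1.28, 1.37 and 1.18 CPM in control, 9.19, 8.20 and 7.13 in HD-het and 2.73, 2.98 and 2.21 in HD-homo cells. Its lines did not overlap either, and it was 6.41-fold higher in HD-het (log2 2.67 ± 0.162, adjusted p = 1.5e-07 in the same test) and 2.07-fold higher in HD-homo cells than in control cells (log2 1.05 ± 0.173, adjusted p = 3.2e-04 in the same test). Epha7 (chr4:28813131-28967499, plus strand) was highest in HD-het cells, with 1.09, 1.1 and 0.676 CPM in control, 4.57, 4.76 and 6.89 in HD-het and 0.920, 1.09 and 0.835 in HD-homo cells. The HD-het increase was 5.66-fold (log2 2.49 ± 0.229, adjusted p = 3.3e-06 in the same test), and the HD-homo value against control cells was -0.01 (adjusted p = 0.98).

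Epha2 (chr4:141301240-141329384, plus strand), the most abundant Eph receptor per kilobase in all lines, had 471, 441 and 414 CPM in control, 413, 365 and 366 in HD-het and 275, 396 and 324 in HD-homo cells. Control libraries were above all others, and HD-homo replicate 2 was above the lower HD-het libraries. Epha2 was 1.33-fold lower in HD-homo cells than in control cells (log2 -0.41 ± 0.113, adjusted p = 0.0088 in edgeR's quasi-likelihood test), and the HD-het value was -0.21 (adjusted p = 0.12). The HD-het value passed the threshold in 1 of 13 alternatives, at -0.22 (adjusted p = 0.014 in the same test) with only the 2 lines compared in the fit. Ephb4 (chr5:137350109-137378669, plus strand), the receptor of Efnb2, had 67.3, 65.6 and 71.0 CPM in control, 55.1, 54.3 and 55.8 in HD-het and 56.6, 52.1 and 50.3 in HD-homo cells. Control libraries were above all others, and the HD lines overlapped. Ephb4 was 1.28-fold lower in HD-homo (log2 -0.36 ± 0.0607, adjusted p = 4.0e-04 in the same test) and 1.23-fold lower in HD-het cells (log2 -0.30 ± 0.0607, adjusted p = 0.0011 in the same test). Epha3 fell from 1.06 ± 0.266 CPM in control to 0.314 ± 0.0714 CPM in HD-homo cells (SD, n = 3), with a log2 fold change of -1.75 (adjusted p = 4.0e-04). Epha6 was lowest in HD-het cells, at -0.45 (adjusted p = 4.3e-04) on the log2 scale against control cells.

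**Figure D4:**
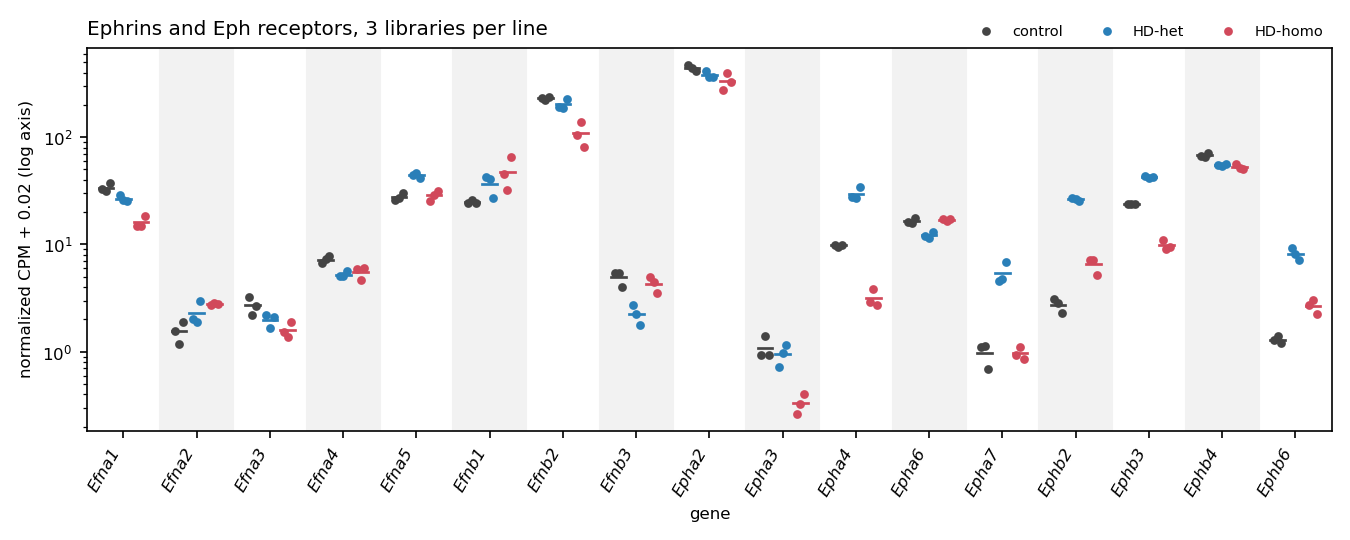
Normalized CPM + 0.02 on a log axis of the 8 ephrins and the 9 tested Eph receptors, with 1 point per library and a bar at the mean of each line. Epha4, Epha7, Ephb2, Ephb3 and Ephb6 were highest in HD-het cells, and Efna1, Efnb2, Epha3, Epha4 and Ephb3 were lowest in HD-homo cells.

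Of the 9 genes that share only letters with the guidance families, 2 were tested. Slitrk5 (chr14:111675097-111683141, plus strand), a transmembrane protein of synapses, had reads of 131, 137 and 159 in control, 8, 12 and 10 in HD-het and 1, 1 and 0 in HD-homo cells. It passed the filter only with the control libraries, which favours a call as lower in the HD lines. The lines did not overlap, and Slitrk5 was 15.2-fold lower in HD-het cells than in control cells (log2 -3.91 ± 0.245, adjusted p = 1.9e-07 in edgeR's quasi-likelihood test). The ratio of its read rate in control to that in HD-homo cells was 243, 95% interval 66.8 to 2010 (exact, from the counts alone), with adjusted p = 1.6e-08 in the same test, and its log2 fold change of -7.67 was -7.07 without replicate 3 of every line. Unc50 (chr1:37430139-37439124, plus strand) had 27.8, 27.6 and 26.9 CPM in control, 32.3, 33.0 and 32.1 in HD-het and 26.9, 25.9 and 23.5 in HD-homo cells. HD-het libraries were above the others, and Unc50 was 1.18-fold higher in HD-het cells than in control cells (log2 0.24 ± 0.0667, adjusted p = 0.0077 in the same test). Between HD-homo and control cells its log2 fold change was -0.11 (adjusted p = 0.17).

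**Figure D5:**
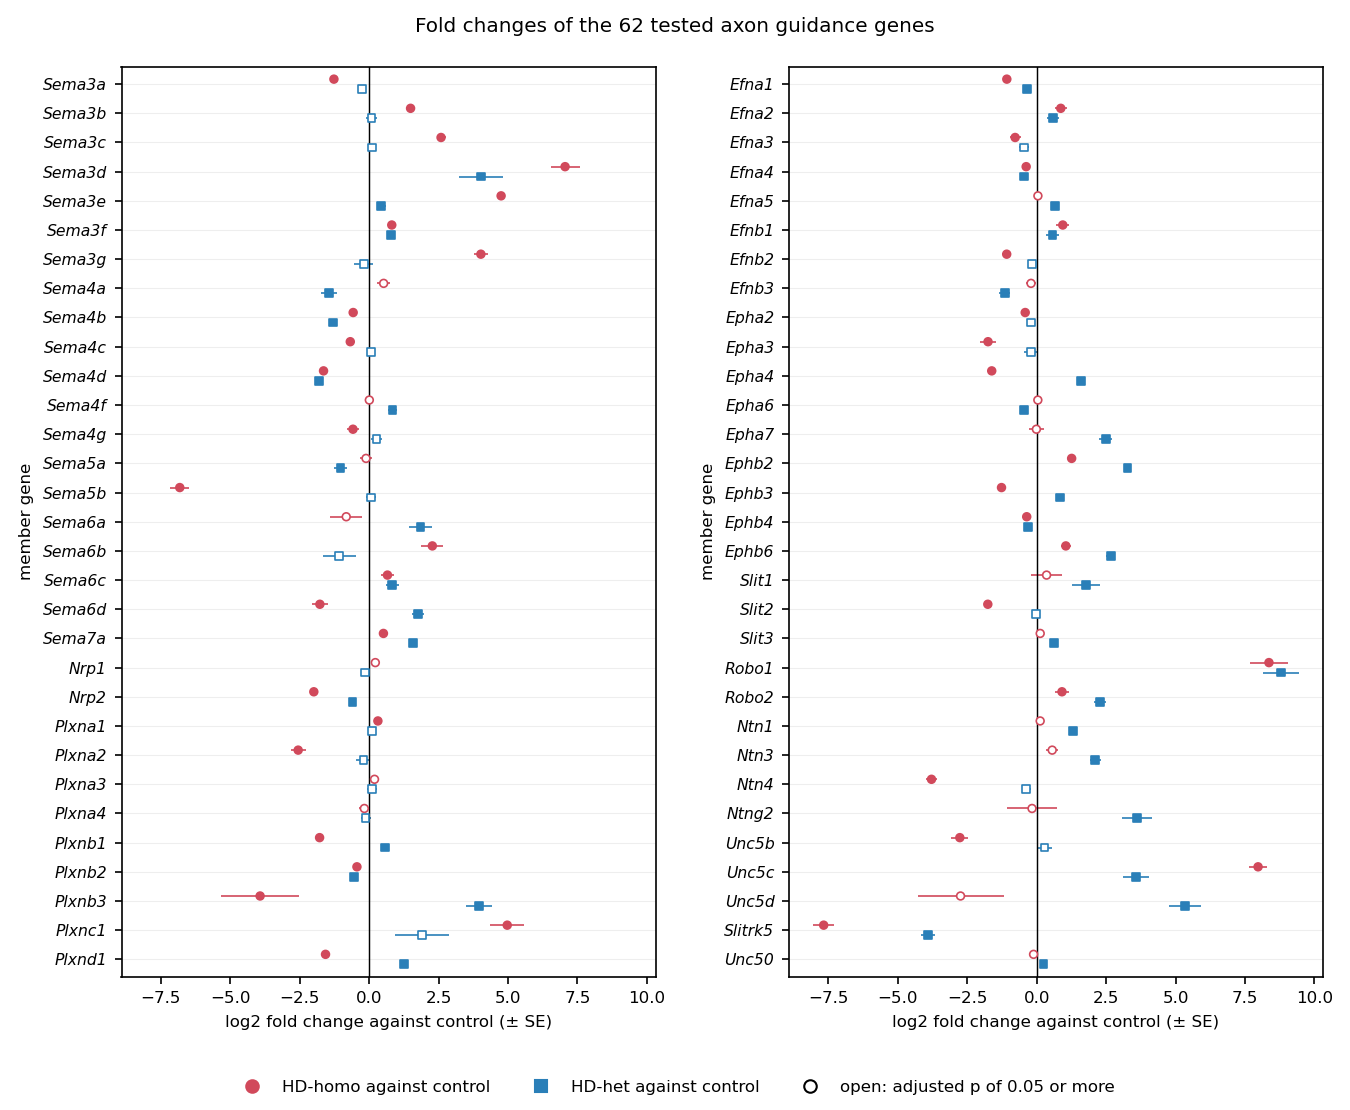
Log2 fold change with its standard error of the 62 tested genes in HD-homo (circles) and HD-het cells (squares) against the same control libraries, with open symbols for an adjusted p of 0.05 or more. Robo1 lay at 8.36 and 8.78, Unc5c at 7.97 and 3.57, Sema3e at 4.75 and 0.44, Sema5b at -6.82 and 0.05 and Epha4 at -1.62 and 1.61, in HD-homo and HD-het cells.

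Other parts of the guidance pathway, outside the symbol rule, were described by 2 lists. Of 29 further ligands, receptors and co-receptors 19 were tested, and 8 were higher and 6 lower in HD-homo and 13 higher and 3 lower in HD-het cells than in control cells, with median log2 fold changes of -0.083 and 0.70. The share called was 73.7% in HD-homo and 84.2% in HD-het cells, against 58.6% and 65.1% of all tested genes. Flrt1, an adhesion protein of the family that binds Unc5 receptors, had 0.653, 0.416 and 0.642 CPM in control, 2.00, 2.26 and 1.14 in HD-het and 6.90, 9.87 and 14.8 in HD-homo cells. Both HD lines were above control cells, with log2 fold changes of 4.20 (adjusted p = 1.5e-06) in HD-homo and 1.66 (adjusted p = 0.0038) in HD-het cells. Lrrc4c, the ligand of netrin-G1, had a log2 fold change of 4.07 (adjusted p = 6.7e-07) in HD-homo against control cells, and Gas1, a Hedgehog co-receptor, of 1.37 (adjusted p = 2.6e-06). Among falls in HD-homo cells of genes with a mean of 1 CPM or more in either line, the largest were those of Boc, a Hedgehog co-receptor of commissural axons, at -1.50 (adjusted p = 4.2e-07), of Rgma, the ligand of neogenin, at -0.92 (adjusted p = 4.4e-04), and of Met, the receptor of hepatocyte growth factor, at -0.69 (adjusted p = 3.9e-06).

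Among 53 cytoplasmic effectors of guidance receptors 50 were tested, and 9 were higher and 25 lower in HD-homo and 22 higher and 11 lower in HD-het cells than in control cells, with median log2 fold changes of -0.21 and 0.13. The share called was 68% in HD-homo and 66% in HD-het cells, near the 58.6% and 65.1% of all tested genes. Srgap1, a GTPase-activating protein that binds Robo1, had 0.404, 0.565 and 0.507 CPM in control, 4.09, 3.90 and 5.42 in HD-het and 11.0, 11.4 and 13.1 in HD-homo cells. Like Robo1 it was lowest in control cells, with log2 fold changes of 4.58 (adjusted p = 4.7e-09) in HD-homo and 3.17 (adjusted p = 2.2e-07) in HD-het cells. Dpysl3, of the collapsin response mediator family, had 327, 327 and 309 CPM in control, 787, 788 and 784 in HD-het and 60.3, 47.9 and 40.1 in HD-homo cells, with -2.70 (adjusted p = 6.9e-09) in HD-homo and 1.29 (adjusted p = 2.0e-06) in HD-het cells. Vav3, an exchange factor that acts after Eph receptors, had a log2 fold change of -3.18 (adjusted p = 2.1e-07) in HD-homo cells, and Mical1, an oxidase that acts on actin after plexins, of -1.38 (adjusted p = 1.2e-07). Fes, a kinase linked to semaphorin signals, was at 1.27 (adjusted p = 1.9e-04) in HD-homo cells on the same scale.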

How the data were processed

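Total RNA was selected for poly(A) and made into directional libraries, 3 from each line, as described in the labels. The authors deposited the number of reads on each gene as whole counts by symbol, with no normalization. Their processing notes list cutadapt, Bowtie 1.1.2, RSEM 1.3.0, DESeq2, GRCm38.p5 and mm10 without a role, so the counts may be rounded estimates, and the strand setting is not given in the sources used here. Genes that share reads cannot be separated in such counts.

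Members were taken by symbol, and the members and the lists of further guidance genes, effectors and markers were chosen with earlier results of these data known. The counts entered edgeR 4.0.16 (R 4.3.3), where filterByExpr removed low genes (minimum count 10, lines as groups) and TMM scaled the libraries. All 9 libraries shared 1 quasi-likelihood fit with a mean for each line, and Benjamini-Hochberg adjustment was made over all tested genes of a comparison. CPM use the normalized library totals, and a standard error is the log2 fold change divided by the root of the F statistic. A floor of 3 counts was used for a line without reads, and ratios with under 10 reads in a line have exact 95% intervals. Any member could be named, and full statistics go by a rule to the 6 largest called increases and the 6 largest called decreases of each comparison that had no overlap and reached 1 CPM in the higher line, to the most abundant gene of each family and to all tested netrin, Slit, Robo, Unc5 and neuropilin genes and Neo1. From each list of further genes the rule takes the 3 largest called increases and decreases in HD-homo against control cells among genes whose higher mean was 1 CPM or more. Members with tests beyond the rule, and the promoters shown, were chosen after their values were seen. The pipeline was tested on simulated data. Positions and exon lengths come from GENCODE release M21, and promoter windows from RefSeq.

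Alternatives were DESeq2's size factors in edgeR, library totals, the Wald test of DESeq2 1.42.0, no filter, only the lines compared, the replicate number as a block, each library left out, and, chosen after seeing the data, replicate 3 of every line left out. Whether same-numbered libraries deviate together was checked.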

Additional observations from a re-analysis of the deposited data

How the results depend on the processing

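In 1554 repeats of 120 fold changes of genes named by rule, no value that passed the threshold in either fit changed its direction, while some small values that passed in neither did. Of these repeats 1511 kept their side of the threshold, 16 lost it and 27 gained it. Of the members called, 37 of 44 between HD-homo and control, 37 of 41 between HD-het and control and 48 of 49 between the HD lines were called in every alternative that gave them an adjusted p. Among these, Sema3d between HD-het and control and Slitrk5 between the HD lines had a value in 12 of 13 alternatives. With 1 library left out, 40 to 47, 39 to 42 and 48 to 52 members were called in these comparisons. Under the other alternatives, 42 to 46, 40 to 48 and 47 to 55 were called, with 46 and 55 for the comparisons of HD-homo cells when no filter on low counts was used and 48 for HD-het against control when other libraries were left out of the fit. With a replicate block on the number in the labels, 44, 42 and 50 were called. The correlation of same-numbered libraries in their deviations from the line means was 0.033, 0.022 and 0.0089 between HD-homo and control, 0.049, 0.15 and 0.13 between HD-het and control and -0.0053, 0.13 and 0.11 between both HD lines, so the numbers were not taken to pair the libraries. The cause of the calls gained or lost was not tested. Depth limits members with under 10 reads in every library of a line, whose fold changes depend on single reads.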
